A study of Mus musculus with 12 samples.

Results

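The tubulin deglutamylase genes encode the cytosolic carboxypeptidases, and all 6 mouse members were described here: Agtpbp1, Agbl1, Agbl2, Agbl3, Agbl4 and Agbl5. They are 6 of 49943 RefSeq genes on the 21 mouse chromosomes, and 6 of the 21887 protein-coding ones. A nucleosome call was counted for a gene when its midpoint lay in the gene body or within 1000 bp of it. The family was chosen by its call counts in these same lists, by stage and MNase amount, so the counts below are a description and carry no test. The lists of calls came from MNase-seq of male germ cells of SV129 mice aged 8 to 12 weeks. Micrococcal nuclease (MNase) cuts linker DNA, so the fragments that survive mark DNA wrapped on histones. Round spermatids (RS), the haploid cells that later lose most of their histones, were compared with a fraction that the labels title meiotic spermatid and their protocol calls meiotic (M). Aliquots of both stages received MNase at 0.5, 1 or 2 U, and 2 samples were made for each combination. An RS digest contained 2 times as many cells as an M digest. Both fractions were sedimented on a BSA gradient from the pooled testes of 11 mice, and fractions of 85% purity or more were kept. The authors made 1 list from the 2 samples of each group, so 6 lists without replicates were compared, and no difference could be set against replicate error. The ranges in parentheses are 95% intervals that cover counting error alone, and they are too narrow because neighbouring calls overlap.

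Polyglutamylation adds side chains of glutamate to the tails of tubulin and is abundant on the microtubules of cilia, flagella and neurons. Ligases of the TTLL family build these chains, and the cytosolic carboxypeptidases remove them. In this family Agbl5 removes the glutamate at the branch point, whereas Agtpbp1, Agbl1, Agbl2, Agbl3 and Agbl4 shorten the chain. The motile tail of sperm is built around an axoneme of modified microtubules during spermiogenesis, the stage that round spermatids enter. In mice, loss of Agtpbp1 causes Purkinje cell degeneration and male infertility, and loss of Agbl5 also impairs sperm formation.

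Of the 6 genes, the single one with a call on a promoter listed by RefSeq was Agbl5, so its sequence is shown first. The window holds 250 bases before and 50 bases after the start of a transcript and spans chr5:30888602-30888901 on the plus strand of GRCm38. Capitals mark the 140 bases of the call in RS at 0.5 U.
Agbl5 promoter: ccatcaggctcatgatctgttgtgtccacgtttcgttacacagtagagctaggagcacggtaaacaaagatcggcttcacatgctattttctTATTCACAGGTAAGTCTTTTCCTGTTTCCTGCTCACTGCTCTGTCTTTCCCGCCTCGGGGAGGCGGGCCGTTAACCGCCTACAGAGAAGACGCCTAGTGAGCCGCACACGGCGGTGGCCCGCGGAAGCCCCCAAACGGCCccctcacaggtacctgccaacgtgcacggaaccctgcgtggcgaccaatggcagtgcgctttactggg
The call covered positions 30888694 to 30888833 of chromosome 5 and ended 19 bases before the start of the transcript shown, at 30888852. It lay inside the gene body as annotated, which begins at 30888639. It overlapped 3 of the 4 promoters listed for the gene, since these windows lie close together. The called stretch was 62.1% G or C and held 12 CpG dinucleotides. The call rested on 6 implied reads, the smallest number at which any call was made. In that list 2.57% of the 27025 genes of the promoter table had a call on a promoter, and over all 6 lists 7.39% did, so 1 gene of 6 in any list is a count from which little can be read.

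The promoters of Agbl1 and Agbl4 are shown because these genes carried most of the calls, while neither promoter had a call in any of the 6 lists. Capitals mark matches to CCAAT or GGGCGG on either strand; these motifs, the CCAAT box and the GC box, do not overlap here.
Agbl1 promoter, chr7:76229637-76229936, plus strand: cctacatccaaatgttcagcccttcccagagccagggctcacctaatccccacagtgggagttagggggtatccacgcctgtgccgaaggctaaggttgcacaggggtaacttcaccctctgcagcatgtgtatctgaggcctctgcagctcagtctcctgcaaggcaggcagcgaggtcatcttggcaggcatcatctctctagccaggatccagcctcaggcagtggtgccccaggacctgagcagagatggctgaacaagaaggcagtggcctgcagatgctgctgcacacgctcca
Agbl4 promoter, chr4:110397448-110397747, plus strand: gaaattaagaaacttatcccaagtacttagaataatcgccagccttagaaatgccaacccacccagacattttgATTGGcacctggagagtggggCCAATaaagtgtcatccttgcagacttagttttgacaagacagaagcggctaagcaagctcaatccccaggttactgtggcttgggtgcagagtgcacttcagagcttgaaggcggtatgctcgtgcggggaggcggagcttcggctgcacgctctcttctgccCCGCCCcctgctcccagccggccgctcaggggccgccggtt
The Agbl4 window held 2 matches to CCAAT and 1 to GGGCGG, and the Agbl1 window held neither. Of all 32851 promoters in the RefSeq table, 37.4% held CCAAT and 35.7% held GGGCGG. The Agbl4 promoter had 13 CpG dinucleotides and the Agbl1 promoter 4, against a median of 7 over all promoters. The 3 promoters of Agtpbp1 were the richest of the family, with 42 to 49 CpG dinucleotides. Those of Agbl2, with 9 and 19, of Agbl3, with 10, and of Agbl5, with 21 to 27, lay between these values.

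Altogether the 6 genes held 290 calls, 200 in RS and 90 in M. Agbl1 had 156 of them and Agbl4 had 122, so 95.9% of the calls lay in the 2 longest genes, which make up 89.1% of the length examined. Every gene had a call in at least 1 list, whereas 36.1% of all protein-coding genes had none. Agbl1 and Agbl4 had calls in each of the 6 lists, as did 4.57% of all protein-coding genes, and they alone reached 20 calls over the lists, as did 6.71%. In RS at 0.5 U, the longest list, 5 of the 6 genes had a call, against 47.6% of all genes, and 2 genes (Agbl2 and Agbl5) had calls in RS lists alone, against 23.3%. The genes behind these shares were not matched to the members in length. The other 4 genes had 1 to 4 calls each.

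**Figure D1:**
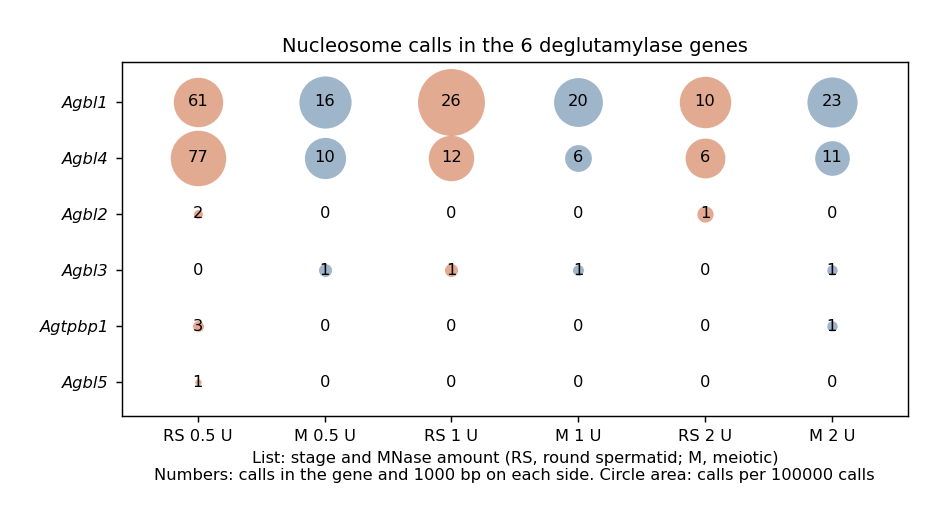
Calls in the 6 genes (rows) and 6 lists (columns), RS in orange and M in blue; the number is the count of calls and the area of the circle is calls per 100000 calls of the list. Agbl1 and Agbl4 have calls in every list, and none of the other 4 genes has more than 3 calls in a list.

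Agbl1, which encodes CCP4, lies on chromosome 7 from 76229591 to 77124698 (895.1 kb). It had 61, 26 and 10 calls in RS at 0.5, 1 and 2 U, against 16, 20 and 23 in M. Divided by list size, these were 34.1, 62.4 and 36.9 calls per 100000 calls in RS and 37.9, 33.3 and 35.1 in M. RS at 1 U was thus the high list, and the other 5 lists lay between 33.3 and 37.9. The ratio of RS to M was 0.898 (0.511 to 1.67) at 0.5 U, 1.88 (1.01 to 3.54) at 1 U and 1.05 (0.447 to 2.30) at 2 U. The mean log2 ratio over the 3 amounts was 0.28, with an interval that includes 0 (-0.25 to 0.80), and without 1 U it was -0.04. Where overlapping calls were counted once it was 0.07. Agbl1 therefore showed no direction between the stages that held at every amount.

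Agbl4, which encodes CCP6, lies on chromosome 4 from 110397649 to 111664324 and is the longest member (1267 kb). It had 77, 12 and 6 calls in RS, against 10, 6 and 11 in M. Per 100000 calls these were 43.0, 28.8 and 22.1 in RS and 23.7, 9.99 and 16.8 in M. RS was the higher stage at 3 of 3 amounts, although RS at 2 U lay below M at 0.5 U. The ratio of RS to M was 1.81 (0.935 to 3.93) at 0.5 U, 2.88 (1.00 to 9.37) at 1 U and 1.32 (0.401 to 3.90) at 2 U. The mean log2 ratio was 0.93 (0.19 to 1.67), and it was 0.85 (-0.02 to 1.73) where overlapping calls were counted once. Of the 1469 protein-coding genes with at least 20 calls, 12.1% were higher in RS at 3 of 3 amounts. By the mean of the 3 amounts 11.2% were at least 2-fold higher in RS and 10% at least 2-fold lower, and neither Agbl1 nor Agbl4 was. Among these genes the mean of RS over the mean of M put Agbl4 at percentile 86.3 and Agbl1 at percentile 67.8. Their log2 values on this scale were 0.90 and 0.33, against a median of 0.00 over these genes.

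**Figure D2:**
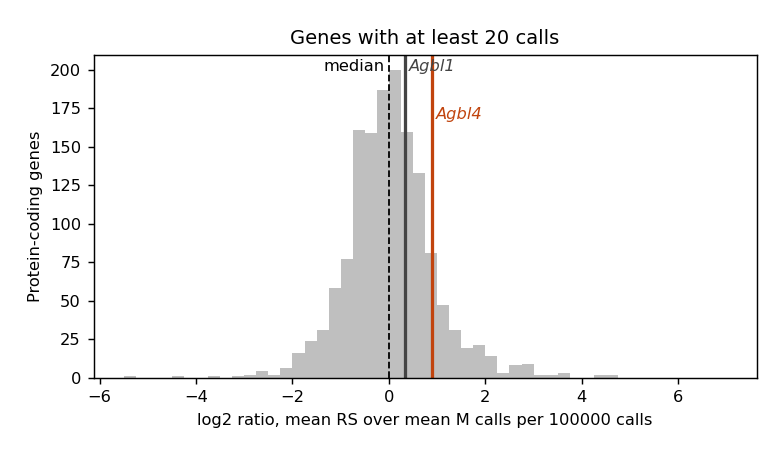
Histogram of the log2 ratio of mean RS to mean M calls per 100000 calls for the 1468 protein-coding genes with at least 20 calls and calls in both stages; lines mark the median, Agbl1 and Agbl4. Both members lie inside the bulk of the distribution, Agbl4 farther to the right at 0.90.

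Agtpbp1, which encodes CCP1 and is the member lost in the Purkinje cell degeneration mouse, lies on chromosome 13 from 59449534 to 59557370 on the minus strand. It had 3 calls in RS at 0.5 U and 0 at 1 and 2 U, against 0, 0 and 1 in M. Agbl2, which encodes CCP2, lies on chromosome 2 from 90782685 to 90834437 and had 2, 0 and 1 calls in RS, against 0 in each M list. Agbl3, which encodes CCP3, lies on chromosome 6 from 34780432 to 34860939. It had 0, 1 and 0 calls in RS, against 1, 1 and 1 in M, and was the single member with more calls in M than in RS. Agbl5, which encodes CCP5, lies on chromosome 5 from 30888639 to 30906666 and had 1 call in RS at 0.5 U, the promoter call above, against 0 in M. For a list with no call in a gene, 3 calls is taken as the limit that a count of 0 allows; it is a one-sided limit, lower than the upper end of the 2-sided Poisson intervals used elsewhere. It is 1.67 calls per 100000 calls in RS at 0.5 U and 4.57 to 11.1 in the other 5 lists.

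By the rule that a gene with a call differs when its calls per 100000 calls differ at least 2-fold between the lists, 3 of the 6 members were higher in RS at 0.5 U (Agtpbp1, Agbl2 and Agbl5) and 1 was lower (Agbl3). Over all protein-coding genes with a call in these lists, 73.4% were higher and 13.4% lower, so a count of 3 in 6 gives nothing beyond the background. All 6 members had a call there, as did 50.1% of all genes. At 1 U, 3 members had calls, and 1 of them (Agbl4) was higher, against a background of 40.1% higher and 40.2% lower; 33.7% of all genes had calls. At 2 U, 5 members had calls: Agbl2 was higher and Agtpbp1 and Agbl3 were lower, against 30.8% and 55%, with calls in 34.2% of all genes. RS at 0.5 U holds 179133 calls and M 42178, while at 2 U RS holds 27101 and M 65614, and the part of list size in these shares was not tested. Over the mean of the 3 amounts, Agbl2 and Agbl5 were higher in RS and Agbl3 lower, and the background was 46.7% higher and 27.4% lower among the 63.9% of genes with a call. With RS at 1 U set against M at 0.5 U, which have equal MNase per cell, none of 3 members with calls differed 2-fold, against 55.9% higher and 26.7% lower among the 28.6% of genes with calls. With RS at 2 U set against M at 1 U, Agbl2 and Agbl4 were higher and Agbl3 lower among 4 members with calls, against 36.6% and 49.2% among the 30.7% of genes with calls.

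Summed over the 6 genes, RS held 144, 39 and 17 calls and M held 27, 27 and 36. These were 80.4, 93.6 and 62.7 calls per 100000 calls in RS, against 64.0, 44.9 and 54.9 in M. RS at 2 U, its lowest list, lay below M at 0.5 U, its highest, so the 2 stages overlapped. The ratio of RS to M was 1.26 (0.828 to 1.97) at 0.5 U, 2.08 (1.24 to 3.54) at 1 U and 1.14 (0.602 to 2.09) at 2 U. The mean log2 ratio was 0.53 (0.11 to 0.94), and it was 0.40 (-0.10 to 0.90) where overlapping calls were counted once. All protein-coding genes together had 0.18 (0.16 to 0.20), and set against them the members had 0.35 (-0.07 to 0.76). Without 1 U the mean of the members was 0.26, and without Agbl4 it was 0.29. At equal MNase per cell the ratio was 1.46 (0.873 to 2.48) for the lower pair of amounts and 1.40 (0.714 to 2.66) for the higher pair.

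**Figure D3:**
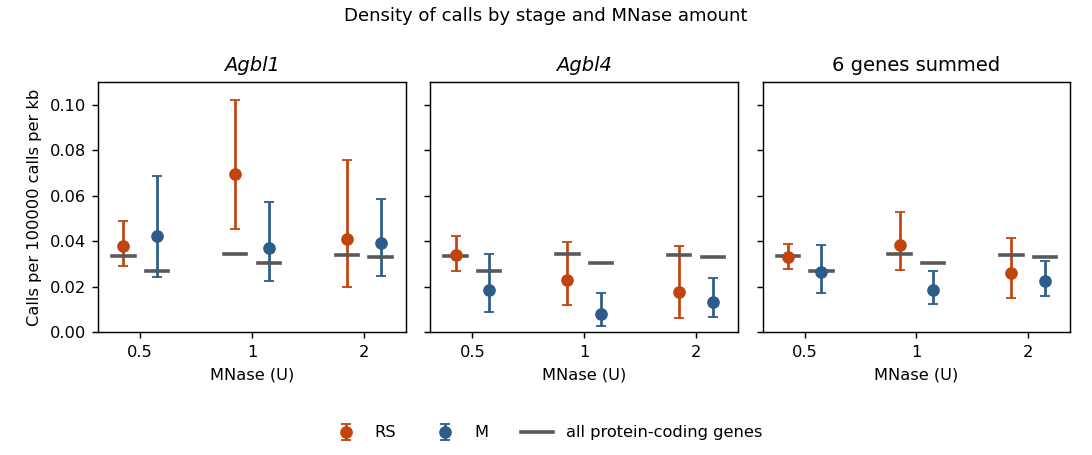
Calls per 100000 calls and per kb for Agbl1, Agbl4 and the 6 genes summed at each MNase amount, RS in orange left of M in blue, with exact Poisson 95% intervals for counting error; grey bars are all protein-coding genes of the same list. RS stands above M at each amount for Agbl4 (0.0339 against 0.0187 at 0.5 U). For Agbl1 the gap between the stages is largest at 1 U (0.0696 in RS against 0.0371 in M). Its intervals there still overlap, with 0.04545 to 0.1019 in RS and 0.02267 to 0.05731 in M. The intervals of RS and M also overlap for Agbl4 at each amount.

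Compared per kb, Agbl1 was the denser of the 2 long genes in each list. It had 0.0380, 0.0696 and 0.0411 calls per 100000 calls per kb in RS, against 0.0423, 0.0371 and 0.0391 in M. Agbl4 had 0.0339, 0.0227 and 0.0175 in RS, against 0.0187, 0.00787 and 0.0132 in M. The intervals of the 2 genes overlapped in 3 of the 6 lists. In RS at 0.5 U they were 0.0290 to 0.0488 for Agbl1 and 0.0267 to 0.0424 for Agbl4, and they also overlapped in RS at 2 U and in M at 0.5 U.

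Relative to what the density of all protein-coding genes would give, Agbl1 had 1.29 times the calls (1.09 to 1.51) over the 6 lists, and Agbl4 had 0.712 times (0.591 to 0.850). For Agbl4 this relative density was 1.01, 0.664 and 0.513 in RS and 0.698, 0.258 and 0.399 in M. RS at 0.5 U was thus at the density pooled over all protein-coding genes, and M at 1 U was the lowest list. For Agbl1 it was 1.13, 2.03 and 1.21 in RS and 1.58, 1.22 and 1.18 in M. The 4 shorter genes together had 12 calls where 35.9 would be at that density, a ratio of 0.334 (0.173 to 0.583). A pooled density is not that of the typical gene. By the mean over the 6 lists, the median gene had 0.0122 calls per 100000 calls per kb, and Agbl4 had 0.0190. In the order of mean density among 21887 genes, Agbl1 stood at percentile 82.8, Agbl4 at 58.9, Agbl3 at 55.1, Agbl2 at 53.6, Agtpbp1 at 40.1 and Agbl5 at 39.8. The order of the last 4 rests on 1 to 4 calls each. Among the 1469 genes with at least 20 calls, Agbl1 stood at percentile 67.7 and Agbl4 at percentile 5.65; this set leaves out genes with few or no calls.

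The sequence around the 2 long genes was then used as a local measure. The 500 kb on each side of Agbl4 held 65, 11 and 7 calls in RS, against 14, 16 and 16 in M, with ratios of RS to M per 100000 calls of 1.09, 0.991 and 1.06. Their intervals were 0.607 to 2.11, 0.416 to 2.28 and 0.369 to 2.72, so a 2-fold difference of the sides in either direction was not excluded at 1 and 2 U. The density of the gene over that of its sides was 0.902 (0.665 to 1.23) in RS and 0.463 (0.277 to 0.760) in M over the 3 amounts. The ratio of these ratios was 1.95 (1.08 to 3.56), and its values were 1.66, 2.91 and 1.25 from 0.5 to 2 U, each with an interval that includes 1. The pooled values sum raw calls, so in RS 77 of the 95 calls of Agbl4 came from 0.5 U, against 10 of 27 in M. With the 3 amounts weighted equally the log2 value was 0.86, for which no interval was computed. By amount, the density of Agbl4 was 0.563, 0.296 and 0.542 times that of its sides in M, and 0.934, 0.860 and 0.676 times in RS. Of these values only that of M at 1 U had an interval below 1 (0.0947 to 0.795). The 2 sides were uneven, with 43, 3 and 7 calls in RS before the gene and 22, 8 and 0 after it. In M they held 7, 10 and 11 before it and 7, 6 and 5 after it.

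Agbl1 showed another pattern. Its density over that of its sides was 1.05 (0.787 to 1.40) in RS and 0.997 (0.689 to 1.44) in M, with a ratio of 1.05 (0.657 to 1.69). These values also sum raw calls over the amounts. With the amounts weighted equally the log2 value was 0.36, again without an interval. At 1 U the sides of Agbl1 went the opposite way from the gene, with 10 calls in RS against 31 in M, and the gene over its sides was 2.90 in RS against 0.719 in M. The 0.5 U lists had the reverse order, 0.819 in RS against 1.62 in M. Within 500 kb of Agbl1 lay 2 other protein-coding genes, against 10 around Agbl4 and 35 around Agbl5.

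**Figure D4:**
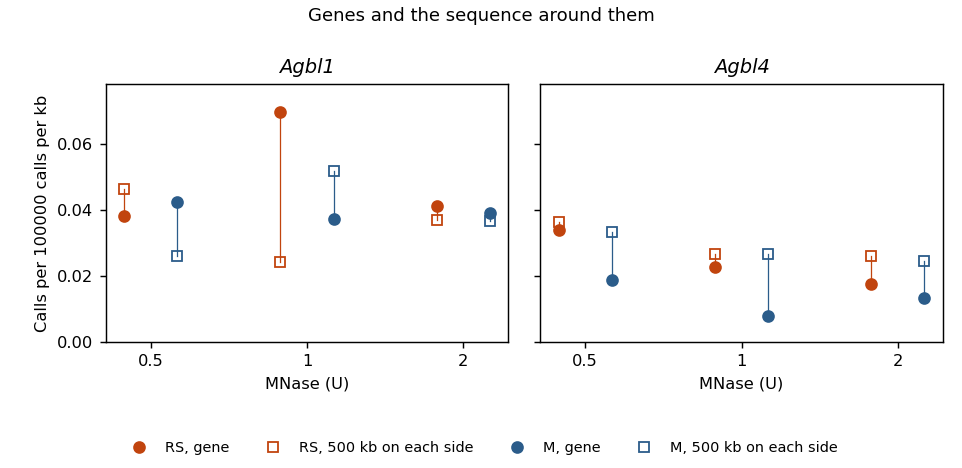
Calls per 100000 calls and per kb in Agbl1 and Agbl4 (filled circles) and in the 500 kb on each side of them (open squares) at each MNase amount, RS in orange left of M in blue; a line joins the 2 values of a list. For Agbl4 the gene lies below its sides in all 6 lists and the gap is larger in M, while for Agbl1 the largest gap is in RS at 1 U. For Agbl4 the interval of gene over sides excludes 1 in M at 1 U alone.

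Along the MNase amounts the 2 long genes had these values. In RS, Agbl4 had 0.515 times as many calls per 100000 calls at 2 U as at 0.5 U (0.183 to 1.17), and in M 0.707 times (0.273 to 1.86). Agbl1 had 1.08 times as many in RS (0.495 to 2.13) and 0.924 times in M (0.467 to 1.87). All protein-coding genes had 1.01 times as many in RS and 1.24 times in M. Between neighbouring amounts, the 26 calls of Agbl1 in RS at 1 U were 1.83 times as many per 100000 calls as the 61 at 0.5 U (1.11 to 2.95). With overlapping calls joined, these were 15 and 39 positions. Each amount is 1 list per stage, and change along the amounts was not tested.

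Positions within the long genes were spread over their whole length. Split at the middle of the gene body, Agbl1 had 48 calls on the 5′ side and 49 on the 3′ side in RS, against 18 and 40 in M. Agbl4 had 42 and 53 in RS, against 13 and 14 in M. Of 10 equal parts of Agbl4 counted from the 5′ end, part 1 held 16, 2 and 1 calls in RS and none in any M list. Part 3 held none in any RS list, against 1, 3 and 3 in M. These parts were picked out after their values were seen, and RS had 247889 calls in its lists, against 167869 in M. The gene Bend5, a protein-coding gene that lies inside Agbl4, had 2 calls over the 6 lists, which are also counted for Agbl4.

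**Figure D5:**
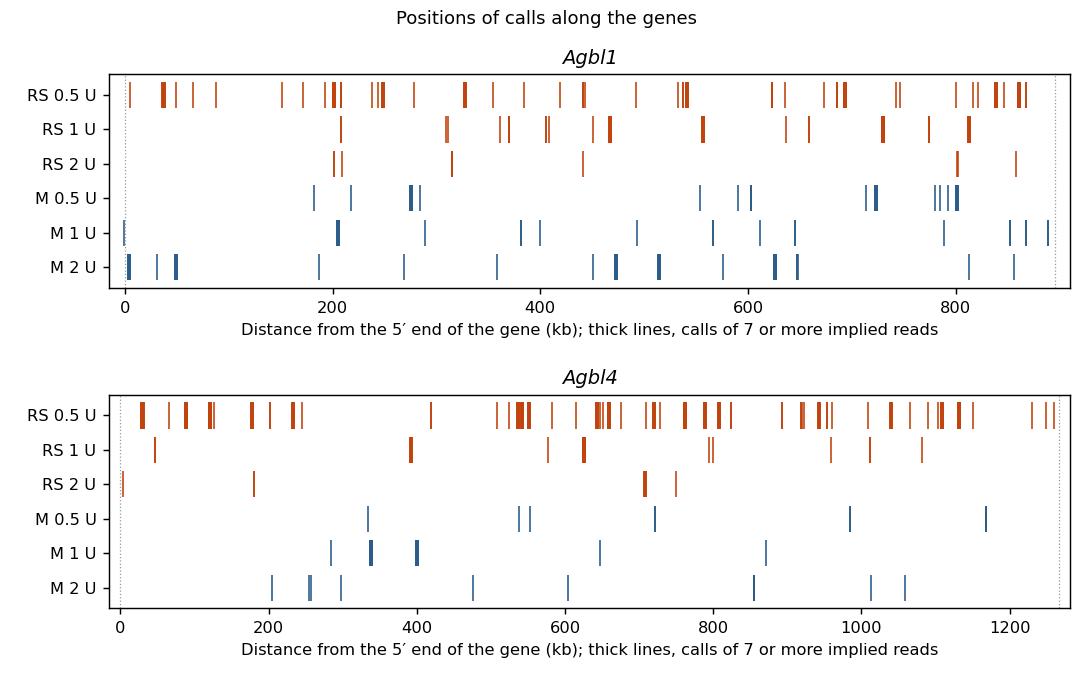
Positions of the calls along Agbl1 and Agbl4 in kb from the 5′ end, with one row per list, RS in orange above M in blue; dotted lines mark the ends of the gene and thick lines are calls of 7 or more implied reads. Calls lie unevenly along both genes, and part 2 of 10 equal parts of Agbl1 has 2 in RS and 0 in M. Part 1 of Agbl4 has 16, 2 and 1 calls in the RS rows and none in the M rows. RS at 0.5 U, which gave the 16, is the longest list.

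Calls at the gene ends were also counted, but not set against the number that so short a length would give. Within 1000 bp of either end of the 6 genes there were 2 calls, the promoter call of Agbl5 in RS at 0.5 U and a call just before Agbl1 in M at 1 U, at positions 76229092 to 76229231 of chromosome 7. The call beside Agbl1 was the single one in the added 1000 bp. The next 1000 bp outside held 4 calls, all before Agbl1, with 1 in RS at 0.5 U and 3 in M at 2 U.

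The calls of the family were mostly at the minimum. The authors' p-values matched Poisson tails, from which a read count could be assigned to each call, and 224 of the 290 calls (77.2%) had exactly 6 implied reads. Over whole lists this share was 65.4% to 69.5%. The call with the most reads, 11, lay in Agbl1 in RS at 0.5 U, at positions 77090242 to 77090381 of chromosome 7. In Agbl4 the most was 8, in RS at 0.5 U and in M at 1 U. None of the calls lay in one of the 260 bins of 10 kb that held more than 20 calls in a list. With overlapping calls joined within each list, the 290 calls made 199 positions, with 98, 25 and 11 in RS and 20, 19 and 26 in M.

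Positions seldom recurred between lists. Joined over all lists at a distance of up to 73 bp, the 6 genes had 195 positions, and 4 of them (2.05%) had calls of 2 lists, against 2.24% of 87362 positions over protein-coding genes outside the dense bins. All 4 lay in Agbl1 and none had calls of 3 or more lists. The positions at chr7:76431172-76431361 and chr7:76670887-76671086 had calls in RS at 0.5 U and at 2 U. Those at chr7:76680222-76680361 and chr7:77042017-77042201 had calls in RS at 1 U and M at 2 U. Agbl4 had 86 positions, none of which recurred.

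Other enzymes that modify tubulin were counted by the same rule, as calls not yet divided by list size unless stated. The 8 tubulin polyglutamylase genes, which encode the ligases that build the chains, held 40 calls in RS and 26 in M. Over the 3 amounts their mean log2 ratio was -0.03 (-0.96 to 0.90), and it was 0.04 in gene bodies alone. Of these genes, 6 had calls, 3 were higher in RS by the 2-fold rule on the mean of the 3 amounts and none was lower, against the background of 46.7% higher and 27.4% lower among genes with a call. Ttll7, a ligase of neurons, had 10 calls in RS and 15 in M, a mean of 5.36 calls per 100000 calls in RS and 9.03 in M. Ttll11 had 12 calls in RS and 9 in M, but divided by list size RS was the lower stage, with 4.32 calls per 100000 calls against 4.67 in M. Ttll5, a ligase needed for normal sperm in mice, had 9 calls in RS (2.72 per 100000 calls), 8 of them at 0.5 U, and 0 in M. The Ttll1 complex partners had 7 calls in RS and 0 in M over 4 genes found of 5 listed, led by Lrrc49 with 4 and 0. All 7 were in RS at 0.5 U, the longest list. The 3 tubulin glycylases, which add chains of glycine to tubulin, had 4 calls in RS and 10 in M, with 1 and 6 in Ttll8. Of 5 genes of the tyrosination cycle 4 were found, with 3 calls in RS and 3 in M. Of the 3 acetylation genes Sirt2 alone had calls, 4 in RS, all at 0.5 U, and 0 in M. The median density over the 6 members was 0.0155 calls per 100000 calls per kb, and it was 0.0122 over all protein-coding genes and 0.00607 over the polyglutamylases.

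Against the 49 genes of the sperm axoneme and flagellum, the members differed less between the stages. The axoneme genes held 443 calls in RS and 103 in M, with a mean log2 ratio of 1.73 (1.37 to 2.09), against 0.53 for the deglutamylases. The dynein gene Dnah8 alone gave 126 of these calls in RS and 16 in M, a mean of 62.8 calls per 100000 calls in RS and 9.02 in M. Against 30 very long neuronal genes, which were not matched in length to Agbl1 and Agbl4, the 6 members summed lay on the other side of 0. Without Agbl4 the value of the members was 0.29, with an interval that includes 0 (-0.22 to 0.80). The neuronal genes had a mean log2 ratio of -0.16 (-0.25 to -0.07). Of the 30, 1 was higher in RS by the 2-fold rule and none lower, against 11.2% higher and 10% lower among genes with at least 20 calls. Their density was 0.0445, 0.0322 and 0.0265 calls per 100000 calls per kb in RS and 0.0445, 0.0359 and 0.0330 in M. Agbl1 lay above these values in RS at 1 and 2 U and in M at 1 and 2 U, and Agbl4 lay below them in all 6 lists. With no replicate lists, these differences between gene lists were not tested. The gene lists were chosen with earlier results of these data known, so they are no independent reference.

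Genes with the most similar profile over the 6 lists were named by the Euclidean distance of log2 calls per 100000 calls per kb, centred on each gene's mean with 0.5 calls of a mean-sized list added, among the genes with at least 20 calls. For Agbl1 these were Fggy (distance 0.373), Ebf1 (0.424) and Nlrp4e (0.433), against a median of 2.30 over 1468 genes. For Agbl4 they were Syn2 (0.519), Kcnip4 (0.770) and Pld5 (0.829), against a median of 2.68. For the 6 members summed they were Hpse2 (0.414), Tnr (0.448) and Plce1 (0.530). With so few calls per list, such distances describe these lists and no more.

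Genes that mark testis cell types, those of the 2 stages included, were also counted. They do not show how pure the fractions were, since calls are not expression. The counts below are not divided by list size or window length. They were 20 calls in RS and 4 in M over 8 Sertoli genes, 10 and 3 over 6 Leydig genes, and 49 and 37 over 6 spermatogonial genes. Over 5 meiotic genes they were 13 and 2, and over 6 spermatid genes 0 and 0. Whether other cells in the fractions contributed to the calls of the 6 genes was not tested.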

How the data were processed

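MNase-seq of 12 samples was analysed through 6 lists of nucleosome calls. Per the design text, the authors made each list from both samples of a group. The deposited lists give 140 bp intervals with a p-value per call that the authors computed, and no read counts. STAR 2.5.2a and the build GRCm38/mm10 are listed per the submitters' processing notes, and the nucleosome caller is not given in the sources used here. List sizes ran from 27101 to 179133 calls, and the number of reads behind them is unknown.

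Midpoints (start + 70) were counted in RefSeq gene bodies of GRCm38.p6 with 1000 bp on each side, and divided by list size (per 100000 calls) and window length. Counts have exact Poisson intervals, ratios have exact conditional intervals, mean log2 ratios have intervals from a normal approximation to the counts, and ratios of ratios have exact conditional odds-ratio intervals, all at 95%. Implied reads are Poisson tails fitted to the 8 largest p-values of a list. Promoter sequences came from RefSeq (GRCm38.p6), where all 6 members matched. Gene names in lists were matched by symbol or synonym. The members and lists were chosen with earlier results of these data known. Genes named from the lists were taken from the 3 with the most calls in each, and genes of like profile were the 3 nearest with at least 20 calls. Alternatives changed the flank, the assignment and joining of calls, the minimum reads, dense bins, the scaling, the amounts paired and the members. The counting step was tested on simulated data. Python 3.11.15, NumPy 2.4.6, SciPy 1.17.1 and pandas 2.3.3 were used.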

Additional observations from a re-analysis of the deposited data

Results flagged for a closer look

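In 5 of the 6 steps between neighbouring MNase amounts, for the 6 genes summed, Agbl1 and Agbl4, calls per 100000 calls went opposite ways in the 2 stages. The difference was not tested, because each step rests on 1 list per stage and amount. The 6 steps are linked, since Agbl1 and Agbl4 hold 95.9% of the summed calls and neighbouring steps share the 1 U lists. How often the steps of other genes went opposite ways was not counted. From 0.5 to 1 U the log2 step of the 6 genes summed was 0.22 in RS and -0.51 in M, a difference of 0.73. From 1 to 2 U it was -0.58 in RS and 0.29 in M, a difference of -0.87. For Agbl1 the first step was 0.87 in RS and -0.19 in M (difference 1.06) and the second -0.76 in RS and 0.07 in M (difference -0.83). For Agbl4 the second step was -0.38 in RS and 0.75 in M, a difference of -1.13. Its first step was negative in both stages, -0.58 in RS and -1.25 in M. From 0.5 to 2 U the stages also shared their direction for the 6 genes summed (-0.36 in RS and -0.22 in M) and for Agbl4 (-0.96 in RS and -0.50 in M). Over all protein-coding genes the steps were 0.03 and -0.01 in RS and 0.19 and 0.12 in M.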

How the results depend on the processing

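Averaged over the amounts, the log2 ratio of RS over M stayed above 0 in each of the 17 alternatives for the 6 genes summed (0.26 to 0.88) and in each of the 11 for Agbl4 (0.63 to 1.19). The counting interval nonetheless included 0 for the sum with overlapping calls counted once (0.40, -0.10 to 0.90), at equal MNase per cell (0.51, -0.05 to 1.08), without 1 U (0.26, -0.25 to 0.77), without Agbl4 (0.29, -0.22 to 0.80) and against all protein-coding genes (0.35, -0.07 to 0.76). It did so for Agbl4 with overlapping calls counted once (0.85, -0.02 to 1.73), at equal MNase per cell (0.71, -0.30 to 1.73), without 0.5 U (0.96, -0.04 to 1.97) and without 1 U (0.63, -0.23 to 1.49). For Agbl1 it ranged from -0.04 to 0.49 over 11 alternatives and was -0.0409 without 1 U, where 0.5 U and 2 U alone give the value. The polyglutamylase value changed sign, with -0.03 in the windows and 0.0442 in gene bodies alone, and the interval of each includes 0. With calls of more than 6 implied reads, the 6 genes had 0.58 (-0.70 to 1.86), and Agbl1 and Agbl4 gave no value because a list had no such call. Set against all protein-coding genes, the value was 0.10 for Agbl1, 0.75 for Agbl4 and -0.34 for the very long neuronal genes. For Agbl1 and Agbl4 taken singly, the alternatives without an amount, at equal MNase per cell, with any overlap and against all genes were added after the data were seen. Some alternatives left a value as it was, which is no sign of stability. For Agbl4 these were the gene body alone, 5000 bp on each side and any overlap (0.93 each). Any overlap also left the sum at 0.53 and Agbl1 at 0.275. Leaving out a replicate could not be run, and depth limits statements on the 4 shorter genes, with 1 to 4 calls each. No paired analysis was possible because each list pools both replicates of its group.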
